A study of Mus musculus with 12 samples.

Results

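The comparison described here asked how splenic CD11c+ dendritic cells differ between mice whose dendritic cells were targeted for deletion of Tgfbr2, the type II receptor for TGF-beta, and control mice. The Cre+ group held 3 arrays of splenic CD11c+ cells from Cre+ mice, and the control group held 3 arrays of splenic CD11c+ cells from Cre- mice, which the labels call healthy. All were of the C57BL/6 background, the cells were isolated by magnetic sorting, and RNA was taken at once without treatment. The sources used here do not give the promoter that drives Cre, the ages of the mice or the number of mice behind each splenic array. The remaining 6 of the 12 arrays held CD11c+CD103+ cells flow-sorted from the mesenteric lymph nodes (MLN) of Cre+ and Cre- mice, pooled from 4 mice, with 3 arrays a group.

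Values are gene-level log2 signals of Affymetrix Mouse Exon 1.0 ST arrays, so a difference of 1 is a 2-fold change. All probe sets that had 1 gene symbol and were placed on an autosome were members of the comparison, which gave 14465 of 23332 probe sets and 14329 genes. Left out were 476 probe sets on X or Y, 55 with no placement, 1019 with several symbols and 7317 with none. A probe set was called when its adjusted p was under 0.05 in limma, with the adjustment over all 23332 probe sets and the spread between arrays estimated from all 12. Because nothing says that the splenic arrays came from separate mice, the p-values measure the spread between these arrays, which may be technical.

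The splenic arrays were alike in scale, with medians of 7.03 to 7.08, and arrays of one group correlated with r of at least 0.984 across probe sets. Arrays of different groups correlated with r of 0.979 to 0.989, so this measure did not set the groups apart. Genes of the Y chromosome set the splenic groups apart. On single arrays Eif2s3y measured 9.81, 9.84 and 10.07 on the Cre- arrays and 3.31, 3.03 and 3.19 on the Cre+ arrays. Kdm5d measured 8.36, 8.01 and 8.32 on the Cre- arrays and 4.17, 4.28 and 4.48 on the Cre+ arrays. The splenic groups therefore differ in a Y-linked signal as well as in genotype, so genotype and the sex of the mice cannot be told apart in any splenic difference below. In MLN both genotypes held intermediate levels of Eif2s3y, with means of 7.42 in Cre- and 7.60 in Cre+.

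TGF-beta is released from a latent complex, binds TGFBR2, and through it activates TGFBR1, which phosphorylates SMAD2 and SMAD3 so that they act with SMAD4 in the nucleus. The pathway restrains activation and proliferation of many immune cells and takes part in the differentiation of tissue macrophages and some dendritic cell subsets. The spleen holds conventional dendritic cells of the cDC1 and cDC2 types and plasmacytoid dendritic cells, beside red pulp macrophages that clear old red cells and marginal zone macrophages that take up blood-borne particles. CD11c is also carried at lower levels by some macrophages, monocytes, lymphocytes and natural killer cells. A B cell gene and MHC class II genes were both at high levels on the splenic arrays. Among probe sets of both groups the B cell gene Cd79b lay at the 99.8th percentile of level, and the MHC class II genes H2-Ab1 and H2-Aa at the 99.9th.

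The targeted gene itself was only slightly lower. Tgfbr2 measured 10.91, 10.94 and 10.96 on the Cre- arrays and 10.66, 10.72 and 10.71 on the Cre+ arrays. The groups did not overlap, and the levels of all 6 arrays were high. The difference was -0.24 (SE 0.075), a level of 84.7% of control, and limma's adjusted p of 0.138 missed the threshold. A gene-level value also covers probes outside the deleted part, so it does not measure how complete the deletion was.

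None of the 41 measured members of a TGF-beta pathway list was called, against a background of 2.06% of autosomal probe sets called in either direction (298 of 14465). The median difference of the list was -0.03, beside 0.03 over all autosomal probe sets. Of the 11 receptors, 8 had a difference below 0 and the median was -0.18. The type I receptor Tgfbr1 had the largest negative difference, with 9.87, 9.99 and 10.03 on the Cre- arrays and 9.66, 9.55 and 9.36 on the Cre+ arrays. Its arrays did not overlap, and the difference of -0.44 (SE 0.111) had an adjusted p of 0.0762 in limma. The activin receptor Acvr2a differed by -0.30 (SE 0.08, adjusted p = 0.0869). The ligand Tgfb1 was at 10.90 to 11.02 in Cre- and 10.81 to 11.09 in Cre+, and the inhibitory SMAD gene Smad7 differed by -0.24 (SE 0.111, adjusted p = 0.312). The 18 measured genes of a list of known TGF-beta responses also held no call, with a median difference of 0.05 and a smallest adjusted p of 0.266.

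Across the autosomes 183 probe sets rose in Cre+ spleen (1.27% of those tested) and 115 fell (0.795%). At least 2-fold differences were reached by 46 of the rises and 15 of the falls. Groups of 3 arrays that do not overlap were common in these data. In 14.7% of autosomal probe sets all Cre+ arrays lay above all Cre- arrays, and in 7.97% all lay below, while all 298 called probe sets showed 1 of these patterns. An unadjusted p under 0.05 was reached by 2151 probe sets. Fitted on the 6 splenic arrays alone, 9 probe sets were called (0.0622%), namely Cd209c, Cdkn3, Gm7180, Gpr33, Hmmr, Ifit1, Ngp, Plcb4 and Prr11, of which Cd209c alone fell. With 1 array left out at a time the count lay between 92 and 315. It was 124 without Cre- array 1, 144 without Cre- array 2, 153 without Cre+ array 1, 92 without Cre+ array 2, 185 without MLN Cre+ array 2 and 188 without MLN Cre- array 2. Of the 126 called autosomal genes picked by the naming rule, 37 were called in each of the 12 omissions.

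**Figure D1:**
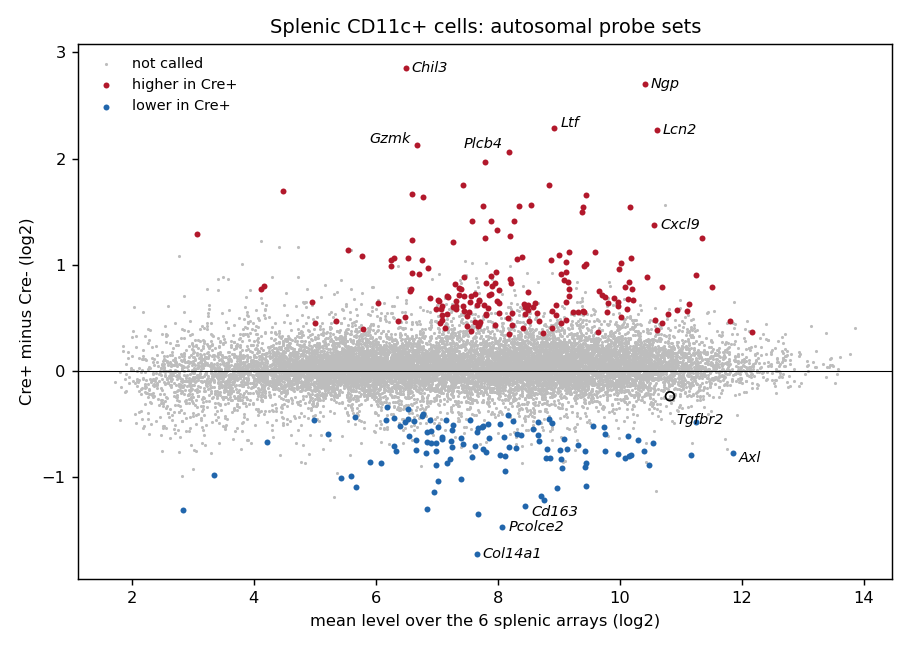
Difference between Cre+ and Cre- spleen (vertical axis, log2) against the mean level over the 6 splenic arrays (horizontal axis, log2) for each autosomal probe set. Red points rose (183), blue points fell (115) and grey points were not called, and the open circle marks Tgfbr2 at -0.24.

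The largest rises were those of granule proteins, which neutrophils make in order as they mature. In a list of 33 measured neutrophil genes 14 rose and none fell, a share of 42.4% called against the background of 2.06%, and the median difference was 0.63. The counts by granule class were as follows. Of 11 genes for specific granules, made at the myelocyte stage, 9 rose and the median was 1.56. Of 15 genes of gelatinase granules and mature cells 4 rose (median 0.27), and of 7 genes of azurophil granules and precursors 1 rose (median 0.31).

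The specific granule genes show the sizes best. Chil3, a chitinase-like lectin also known from alternatively activated macrophages, measured 4.84, 5.0 and 5.35 on the Cre- arrays and 8.15, 7.30 and 8.29 on the Cre+ arrays. All Cre+ arrays were far above all Cre- arrays, with array 2 the lowest of them. The difference was 2.85 (SE 0.284), a 7.21-fold rise with an adjusted p of 0.00155 in limma, and it was the largest rise of any autosomal probe set. Ngp, neutrophilic granule protein, measured 8.91, 9.15 and 9.13 in Cre- and 12.24, 11.31 and 11.73 in Cre+. The groups were again apart, and the gene rose 6.5-fold (log2 difference 2.70, SE 0.215, adjusted p = 0.000467). Ltf, the iron-binding protein lactoferrin, measured 7.85, 7.89 and 7.58 in Cre- and 10.79, 9.50 and 9.90 in Cre+. Ltf rose 4.89-fold (SE of the log2 difference 0.248, adjusted p = 0.00264), with array 1 the highest.

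Lcn2, a lipocalin that binds bacterial siderophores, measured 9.36, 9.59 and 9.45 in Cre- and 12.09, 11.10 and 12.04 in Cre+. Its Cre+ arrays were all at least 1 log2 unit above the Cre- arrays, and the rise was 4.83-fold (adjusted p = 0.00184). Camp, the precursor of the antimicrobial peptide cathelicidin, measured 7.0, 6.80 and 6.64 in Cre- and 9.38, 8.15 and 8.79 in Cre+, a rise of 3.9-fold (adjusted p = 0.00924). The calls of Chil3, Ngp, Ltf, Lcn2 and Camp held in each of the 12 omissions of 1 array. Pglyrp1, which binds bacterial peptidoglycan, rose 1.73-fold from a higher level (10.18, 10.41 and 10.30 against 11.22, 10.95 and 11.10) and also held in all 12. The neutrophil collagenase Mmp8 rose 2.95-fold, the surface protein Cd177 rose 2.37-fold and the haemoglobin-binding haptoglobin Hp rose by 1.02 on the log2 scale. The latter 3 were each lowest among Cre+ arrays on array 2.

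Of the mature and gelatinase class, the calprotectin subunits S100a8 and S100a9 rose together. S100a8 measured 9.57, 9.36 and 9.23 in Cre- and 11.71, 10.38 and 10.70 in Cre+, a 2.92-fold rise (adjusted p = 0.024). S100a9 measured 8.33, 8.77 and 8.75 in Cre- and 11.17, 9.85 and 9.80 in Cre+, a 3.15-fold rise (adjusted p = 0.0365) whose call held in 4 of the 12 omissions. In both, Cre+ array 1 was highest by over 1 log2 unit. Lrg1, a secreted leucine-rich glycoprotein, rose 2.66-fold, with a call that held in 1 of 12 omissions, and the integrin subunit gene Itgb2l rose 1.88-fold.

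Of the list, Hp above and Csf3r, Mmp9, Elane and Prtn3 here are named after their values were seen. Csf3r, which receives the G-CSF signal for neutrophil production, measured 10.41, 10.72 and 10.43 in Cre- and 10.73, 10.03 and 10.68 in Cre+, and the groups overlapped. Mmp9, the gelatinase of the granule class named for it, measured 9.37, 9.89 and 9.58 against 10.04, 9.04 and 10.12. Il1r2, the decoy receptor for IL-1 and the member of highest level, measured 11.73, 11.89 and 11.60 against 11.51, 11.18 and 11.80. Retnlg, a resistin-like peptide, differed by 1.56 (SE 0.38) with groups apart and an adjusted p of 0.0657. The azurophil protease genes Elane and Prtn3 differed by 0.35 and -0.00071, and Mpo, myeloperoxidase, rose 1.55-fold at a low level (5.71, 5.79 and 5.63 against 6.14, 6.31 and 6.59).

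The mean of the 33 neutrophil genes was 7.93, 8.09 and 7.93 on the Cre- arrays and 9.15, 8.46 and 8.94 on the Cre+ arrays. The list is one of markers of another cell type than the one sorted, and the part of such cells in these rises was not tested. In bulk samples more cells of a type and more RNA per cell cannot be told apart. The count of 14 rises fell to 6 without Cre- array 1, 7 without Cre- array 2 and 8 without Cre- array 3, and to 1 (Ngp) in the fit of the 6 splenic arrays alone.

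**Figure D2:**
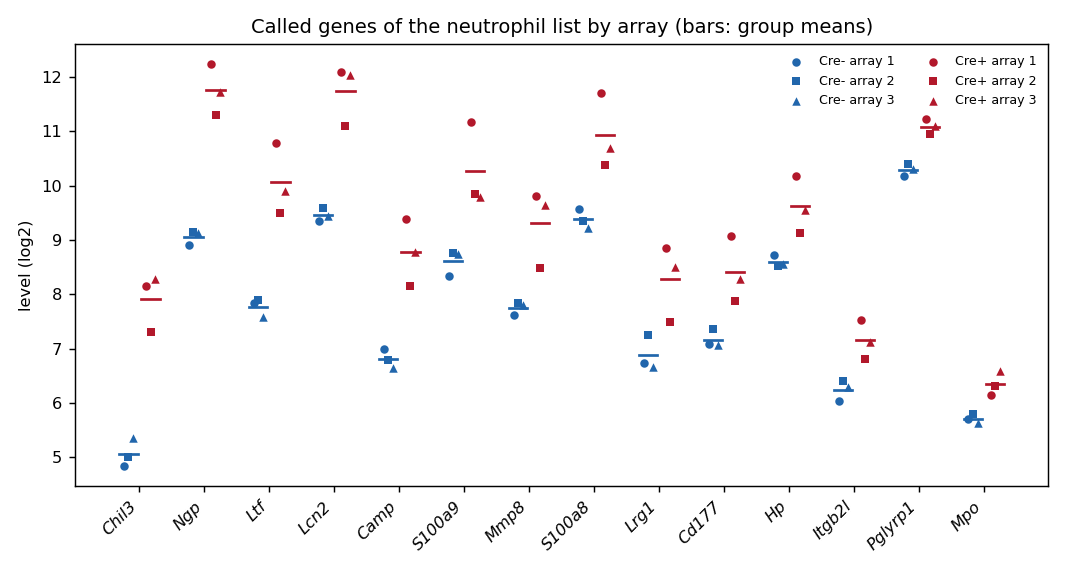
Levels (log2) of the 14 called neutrophil genes on each splenic array, blue for Cre- and red for Cre+, with the group mean as a bar and marker shape for the array number. Within Cre+, array 2 (square) is the lowest of the 3 for most genes. The groups do not overlap in the 14 genes, as in all 298 called probe sets and in 14.7% of autosomal probe sets in this direction.

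Promoter stretches of the granule genes are shown because specific granule genes are known to be driven by C/EBP factors. The 250 bases before the start of each gene were searched on both strands for TTGCNNAA, a C/EBP-like motif in which N is any base. It was found in 9 of 27 neutrophil genes with a promoter sequence (33.3%), in 5 of 13 of those called, and in 8.2% of 11460 autosomal genes. Among all called rises 6.8% held it, and among all called falls 4.21%. The ETS-like letters GAGGAA were in 55.6% of neutrophil, 48.1% of macrophage and 22.3% of all promoters. In the following stretches, from RefSeq on GRCm38.p6 and read 5′ to 3′ on the gene's strand, capitals mark the motif on either strand.
Ltf, chr9:111019191-111019250, plus strand: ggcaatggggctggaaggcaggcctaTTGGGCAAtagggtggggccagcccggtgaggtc
Ngp, chr9:110419748-110419807, plus strand: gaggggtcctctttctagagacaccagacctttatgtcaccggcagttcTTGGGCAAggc
Lcn2, chr2:32387922-32387981, minus strand: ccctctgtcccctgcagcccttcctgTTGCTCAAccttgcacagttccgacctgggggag
Mmp8, chr9:7558369-7558428, plus strand: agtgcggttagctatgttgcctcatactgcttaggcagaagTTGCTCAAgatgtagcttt
S100a9, chr3:90695912-90695971, minus strand: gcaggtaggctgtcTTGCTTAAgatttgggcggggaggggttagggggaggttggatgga
The motif begins 11 and 19 bases before the start in Ngp and Mmp8 and 236 bases before it in S100a9, and Ngp holds 2 copies, of which 1 is shown. A match describes letters in this window and not a bound site, and the gene Cebpe, whose protein drives the granule programme, was at 5.55, 6.12 and 5.81 in Cre- and 6.82, 6.21 and 6.35 in Cre+ without a call (adjusted p = 0.107).

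Interferon-induced genes formed the next group of rises. Type I interferons induce effectors that block viral replication, whereas interferon gamma induces immunity-related GTPases, chemokines and genes of antigen processing. Of 42 measured genes of the type I list 15 rose and 1 fell (38.1% called against 2.06% of all autosomal probe sets, median 0.54). A difference above 0 was found in 39 of the 42, beside 58% of all autosomal probe sets. Of 24 measured genes of the interferon gamma list 9 rose and none fell (37.5% called against the same 2.06%, median 0.41). Among them were 5 of the 6 measured GTPases, whose median was 0.82.

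Oas2, a sensor of double-stranded RNA, measured 7.51, 7.63 and 7.58 in Cre- and 9.46, 9.32 and 8.60 in Cre+. The groups were well apart, with array 3 the lowest of Cre+, and the rise was 2.93-fold (SE of the log2 difference 0.245, adjusted p = 0.0139). The related Oasl2 rose 2.83-fold, from 8.49, 8.93 and 8.48 to 10.36, 10.23 and 9.81 (adjusted p = 0.0104), and its neighbour Oasl1 rose 1.56-fold. Ifit1, which binds viral RNA caps, measured 7.78, 7.38 and 7.5 in Cre- and 9.0, 9.0 and 8.89 in Cre+, a 2.66-fold rise (adjusted p = 0.017). Its Cre+ arrays were nearly equal, and its neighbour Ifit2 rose 1.82-fold with a call that held in all 12 omissions.

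Among the sensors, the Z-form nucleic acid receptor gene Zbp1 rose 2.18-fold (9.02, 9.11 and 8.96 against 10.49, 10.37 and 9.59) and the PYHIN family gene Ifi205 rose 1.86-fold. Ifi27l2a rose 2.41-fold and Rtp4 2.07-fold, the latter called in all 12 omissions. The Schlafen genes Slfn1 and Slfn2, neighbours on chromosome 11, rose 1.52-fold and 1.55-fold. Bst2, which tethers budding virions and marks plasmacytoid dendritic cells in mice, fell, with 10.47, 10.90 and 10.50 in Cre- and 9.98, 10.02 and 9.91 in Cre+ (difference -0.65, adjusted p = 0.027). The 12 measured genes of interferon receptors and signalling held no call, and the smallest adjusted p was 0.199.

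On the interferon gamma side, Cxcl9, a ligand of the T cell chemokine receptor CXCR3, measured 9.85, 9.71 and 10.05 in Cre- and 11.27, 11.49 and 10.98 in Cre+. The groups did not overlap and the rise was 2.6-fold (SE of the log2 difference 0.159, adjusted p = 0.00398), called in all 12 omissions. Cxcl11, another CXCR3 ligand, rose 1.98-fold at a low level. Of the interferon-induced GTPases, Gbp2 measured 8.81, 8.58 and 8.47 in Cre- and 10.54, 10.30 and 9.64 in Cre+ (2.91-fold, adjusted p = 0.0143). Irgm1 measured 8.42, 8.66 and 8.75 against 9.95, 9.79 and 9.45 (2.17-fold, adjusted p = 0.00515) and held in all 12 omissions. Gbp5 and Gbp7, neighbours on chromosome 3, rose 1.77-fold and 1.71-fold. The 2 probe sets of Tgtp1 rose 3.17-fold and 1.77-fold. Tap1, the peptide transporter of MHC class I loading, rose 1.49-fold, while the interferon gamma targets Nos2 and Ido1 differed by 0.05 and -0.10 with overlapping arrays and are named after their values were seen.

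Cre+ array 3 had the smallest interferon rises. The mean of the type I list was 9.18, 9.20 and 9.19 on the Cre- arrays and 9.84, 9.85 and 9.58 on the Cre+ arrays. The count of 15 type I rises became 5 without Cre+ array 1, 3 without Cre+ array 2, 8 without Cre- array 1 and 5 without Cre- array 2. The 9 interferon gamma rises became 5 without Cre+ array 1, 2 without Cre+ array 2, 3 without Cre- array 1, 4 without Cre- array 2, 5 without Cre- array 3 and 5 without MLN Cre+ array 1. In the fit of the 6 splenic arrays alone, Ifit1 was the single call of the type I list and the gamma list held none.

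The promoters of these genes are shown for the interferon-stimulated response element, which IRF factors bind. Its core GAAANNGAA was searched on both strands in the same 250 bases. It was present in 11 of 20 genes of the interferon gamma list with a promoter sequence (55%) and in 7 of the 8 called ones. In the type I list it was in 10 of 32 (31.2%) and in 3 of the 10 called ones (30%). Of 11460 autosomal genes 6.61% held it. Among all called rises 12.9% held it, and among all called falls 7.37%. Capitals mark it on either strand in these RefSeq stretches of GRCm38.p6.
Cxcl9, chr5:92328220-92328280, minus strand: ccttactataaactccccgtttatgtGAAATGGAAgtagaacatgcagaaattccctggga
Gbp2, chr3:142620579-142620639, plus strand: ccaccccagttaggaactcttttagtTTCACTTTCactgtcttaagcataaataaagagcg
Gbp7, chr3:142530258-142530318, plus strand: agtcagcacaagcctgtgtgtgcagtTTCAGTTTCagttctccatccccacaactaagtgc
Irgm1, chr11:48871421-48871481, minus strand: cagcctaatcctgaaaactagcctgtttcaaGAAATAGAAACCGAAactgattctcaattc
Tgtp1, chr11:48992289-48992349, minus strand: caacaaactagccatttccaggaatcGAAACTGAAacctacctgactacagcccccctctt
Ifit1, chr19:34640779-34640839, plus strand: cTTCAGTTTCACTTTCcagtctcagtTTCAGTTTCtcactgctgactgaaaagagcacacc
Irgm1 carries 2 overlapping copies and Ifit1 carries 3 copies in the window. In Irgm1 and Gbp7 the copy nearest the start begins 24 and 52 bases before it.

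Genes of cell division were the broadest group. Of 80 measured cell cycle genes 21 rose and none fell (26.2% called against 2.06% of all autosomal probe sets), and the median was 0.44. A difference above 0 was found in 79, beside 58% of all. The rises gathered in mitosis. Of 37 genes of G2/M and mitosis 18 rose (median 0.61), of 26 genes of G1/S and DNA replication 2 rose (median 0.37), and of 4 measured histone genes none did. Among 13 brakes of the cycle and D cyclins Ccnd3 alone rose.

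Hmmr, a spindle-associated hyaluronan receptor, measured 5.89, 6.01 and 6.07 in Cre- and 6.96, 7.14 and 7.06 in Cre+. The arrays within a group lay close together and the groups far apart, with a 2.09-fold rise (adjusted p = 0.00834). Ccne2, the cyclin E that starts S phase, measured 6.21, 6.43 and 6.49 against 7.38, 7.34 and 7.31, a 1.96-fold rise (adjusted p = 0.00515). Kif11, the motor that separates spindle poles, rose 1.81-fold (8.59, 8.77 and 8.60 against 9.53, 9.59 and 9.42). Mki67, the proliferation antigen Ki-67, rose 1.75-fold (7.53, 7.60 and 7.38 against 8.39, 8.36 and 8.17). All 4 kept their calls in each of the 12 omissions.

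The checkpoint kinase Bub1 rose 1.77-fold, the cytokinesis motor Kif20a 1.69-fold, the centromere guardian Sgo1 1.61-fold and the spindle pole protein gene Aspm 1.52-fold. The mitotic kinase Cdk1 and its cyclins Ccna2 and Ccnb2 rose by 0.84, 0.75 and 0.83 on the log2 scale. Outside the list, Prr11, a gene of mitotic cells, measured 7.20, 7.33 and 7.44 in Cre- and 8.54, 8.79 and 8.61 in Cre+, a 2.5-fold rise (adjusted p = 0.00678). The kinesin Kif23, the spindle gene Tacc3 and the centromere gene Cenpn rose 1.39-fold, 1.3-fold and 1.67-fold.

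The Cre+ arrays lay close together in the cell cycle list. Its mean was 8.18, 8.22 and 8.06 on the Cre- arrays and 8.59, 8.66 and 8.55 on the Cre+ arrays. The count of 21 rises became 10 without Cre+ array 1, 4 without Cre+ array 2, 8 without Cre- array 1 and 12 without Cre- array 3, and in the fit of the 6 splenic arrays alone Hmmr was the 1 call. In 29.2% of 65 cell cycle promoters the letters TTTGAA, the core of the CHR element of mitotic genes, were present, beside 13% of all promoters. CCAAT, the NF-Y core, was in 66.2% of the cell cycle promoters and 35.6% of all.

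**Figure D3:**
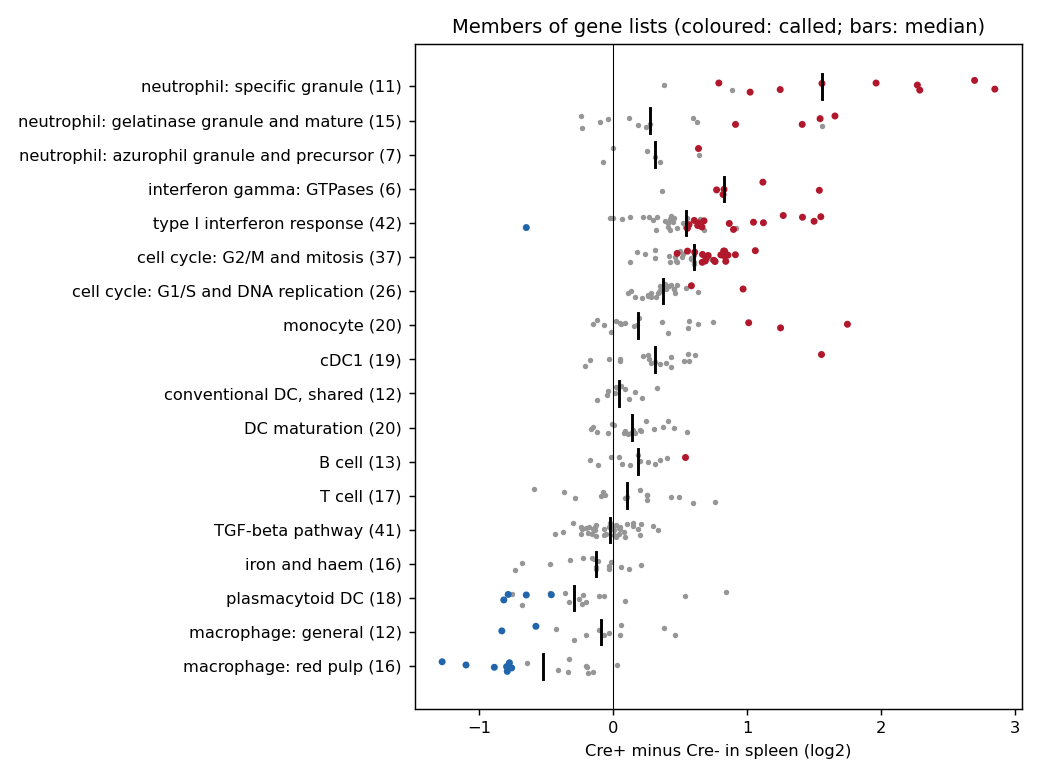
Differences between Cre+ and Cre- spleen (log2) of every measured member of 18 gene lists or classes, with the number of members in brackets. Red and blue points were called, grey points were not, and black bars are medians, which reach 1.56 for specific granule genes and -0.53 for red pulp macrophage genes.

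Some monocyte and Fc receptor genes were also among the rises. Of 20 measured monocyte genes 3 rose (15% called, median 0.19). Of 12 measured Fc receptor genes 3 rose, namely Fcgr4, Fcgr3 and Fcrl5, and none fell (25% called, median 0.13, with 3 differences below 0). Over all autosomal probe sets 2.06% were called, and 1.27% rose. Ly6i, a member of the Ly6 surface family, measured 7.94, 8.41 and 7.52 in Cre- and 10.13, 9.94 and 9.05 in Cre+, a 3.36-fold rise (adjusted p = 0.0195). Clec4e, the receptor Mincle for mycobacterial glycolipids, rose 2.02-fold, from 9.42, 9.69 and 9.45 to 10.81, 10.46 and 10.33. Fcgr4, a receptor for IgG2 that is highest on patrolling monocytes and is induced by interferon gamma, measured 10.77, 10.83 and 10.56 in Cre- and 12.24, 11.88 and 11.79 in Cre+. It rose 2.38-fold (adjusted p = 0.0243), and its neighbour Fcgr3 rose 1.3-fold. The mean of the monocyte list was 9.78, 9.75 and 9.71 in Cre- and 10.35, 10.06 and 9.97 in Cre+, and the part of such cells was not tested.

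Further rises belonged to no large group. Plcb4, a phospholipase C that yields the calcium messenger inositol trisphosphate, measured 7.47, 6.83 and 7.14 in Cre- and 9.40, 9.23 and 8.98 in Cre+. The groups were separated by over 1.5 log2 units, and the gene rose 4.17-fold (SE of the log2 difference 0.176, adjusted p = 0.000677) with a call in all 12 omissions. Its neighbour on chromosome 2, Plcb1, rose 1.56-fold at a low level (4.67, 4.62 and 4.62 against 5.62, 5.24 and 4.98). None of the other 8 measured phospholipase C genes was called. The 2 calls were 20% of the 10 measured, against 2.06% of all autosomal probe sets. Spon1, the matrix protein F-spondin, measured 6.39, 6.99 and 6.29 in Cre- and 8.96, 8.16 and 7.81 in Cre+, a 3.38-fold rise (adjusted p = 0.0106). Gpr33, a receptor of the chemoattractant family found on dendritic cells, measured 7.18, 6.95 and 6.83 in Cre- and 8.47, 8.44 and 8.72 in Cre+, a 2.94-fold rise (adjusted p = 0.00817). Gpr33 was the 1 called gene among 19 measured cDC1 markers (5.26%, against 2.06% of all autosomal probe sets).

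Gzmk, a granule protease of effector and memory T cells, rose 4.38-fold with unequal arrays. It measured 5.59, 5.59 and 5.62 in Cre- and 6.35, 8.32 and 8.53 in Cre+, and its call (adjusted p = 0.0367) held in 2 of 12 omissions. The T cell list moved with it over the Cre+ arrays. That list's mean was 9.12, 9.12 and 9.36 in Cre- and 8.72, 9.65 and 9.59 in Cre+, and the part of T cells in the Gzmk values was not tested. Cd3e, a subunit of the T cell receptor complex, measured 9.62, 9.80 and 10.10 against 9.24, 10.79 and 10.96, chosen after its values were seen. None of 17 T cell genes and none of 10 natural killer cell genes was called.

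Chil1, a chitinase-like glycoprotein, rose 2.66-fold (7.21, 7.17 and 7.15 against 9.24, 7.92 and 8.61). Tnf, the inflammatory cytokine, rose 1.73-fold from a high level, with 11.04, 11.13 and 11.19 in Cre- and 12.07, 12.03 and 11.63 in Cre+ (adjusted p = 0.0135). Taar7b, of the trace amine receptors, rose 3.12-fold with Cre- array 2 (6.81) well above the other Cre- arrays (5.59 and 5.44). Olfr983, an odorant receptor gene at the 4.59th percentile of level, rose 2.44-fold with a call that held in 1 of 12 omissions. RMA values carry no detection call, so such low values may lie near the floor of the array.

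Among the falls, genes of splenic macrophages stood together. Of 35 measured macrophage genes 10 fell and none rose (28.6% called, against 0.795% of all autosomal probe sets lower and 2.06% in either direction), and the median was -0.30. By place, 7 of 16 red pulp genes fell (median -0.53), 1 of 7 of the marginal zone and metallophilic class, and 2 of 12 general macrophage genes. Of the red pulp genes 15 had a difference below 0.

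Cd163, the receptor that clears haemoglobin bound to haptoglobin, measured 9.30, 8.83 and 9.14 in Cre- and 7.65, 7.85 and 7.94 in Cre+. All Cre+ arrays were below all Cre- arrays, and the level fell to 41.2% of control (log2 difference -1.28, SE 0.119, adjusted p = 0.00115). Cd209c, a C-type lectin of the DC-SIGN family, measured 8.39, 8.33 and 8.31 in Cre- and 7.06, 6.79 and 7.13 in Cre+. It fell to 39.2% (difference -1.35, SE 0.133, adjusted p = 0.00155) and was the single fall called on the 6 splenic arrays alone. Itga9, an integrin subunit for tenascin and osteopontin, measured 9.72, 9.45 and 9.38 in Cre- and 8.65, 8.53 and 8.07 in Cre+, a fall to 46.6% (adjusted p = 0.00834). The calls of all 3 held in each of the 12 omissions.

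The efferocytosis receptors Mertk and Axl, which bind phosphatidylserine through bridging proteins, both fell. Mertk measured 10.82, 10.56 and 10.34 in Cre- and 9.72, 9.78 and 9.85 in Cre+, a fall to 57.7% (adjusted p = 0.0145). Axl measured 12.51, 12.16 and 12.04 in Cre- and 11.42, 11.57 and 11.40 in Cre+, a fall to 58.4% (adjusted p = 0.0275). In both the groups were apart and Cre- array 1 was the highest. With the scavenger receptor Stab2 (67%) and the integrin subunit Itgb5 (60.1%), 4 of 21 measured efferocytosis genes fell and none rose. Called were 19% of the list, beside 2.06% of all autosomal probe sets.

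Fcna, the lectin ficolin A that starts complement, fell to 54% (10.70 to 11.20 against 9.87 to 10.24). Hpgd, which inactivates prostaglandins, fell to 57.5%, and the mannose receptor Mrc1 to 59.1% (11.05, 10.71 and 10.58 against 9.85, 9.97 and 10.24). Timp2, an inhibitor of matrix proteases, fell to 56.1%. The growth factor gene Igf1 and its neighbour Stab2 on chromosome 10 both fell, Igf1 to 59.2%.

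Several defining red pulp markers were not called, and the following were picked after their values were seen. Spic, the transcription factor of red pulp macrophages, measured 10.86, 10.53 and 10.92 in Cre- and 10.65, 10.66 and 10.43 in Cre+, with overlap. Vcam1 measured 11.83, 11.54 and 11.59 against 11.18, 11.21 and 11.34, a difference of -0.41 (adjusted p = 0.302). Adgre1, the F4/80 antigen, differed by -0.34 (adjusted p = 0.215) and the secreted Cd5l by 0.03. Slc40a1, the iron exporter ferroportin, measured 12.53, 12.08 and 11.78 against 11.52, 11.32 and 11.34 (difference -0.74, adjusted p = 0.0998), and none of 16 iron and haem genes was called.

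The mean of the red pulp class was 10.75, 10.54 and 10.40 on the Cre- arrays and 10.05, 10.05 and 9.94 on the Cre+ arrays. Red pulp macrophages are another cell type than the one sorted, and their part in these falls was not tested. The count of 10 macrophage falls became 4 without Cre+ array 2 and 6 without Cre- array 2, and in the fit of the 6 splenic arrays alone it was 1, Cd209c.

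**Figure D4:**
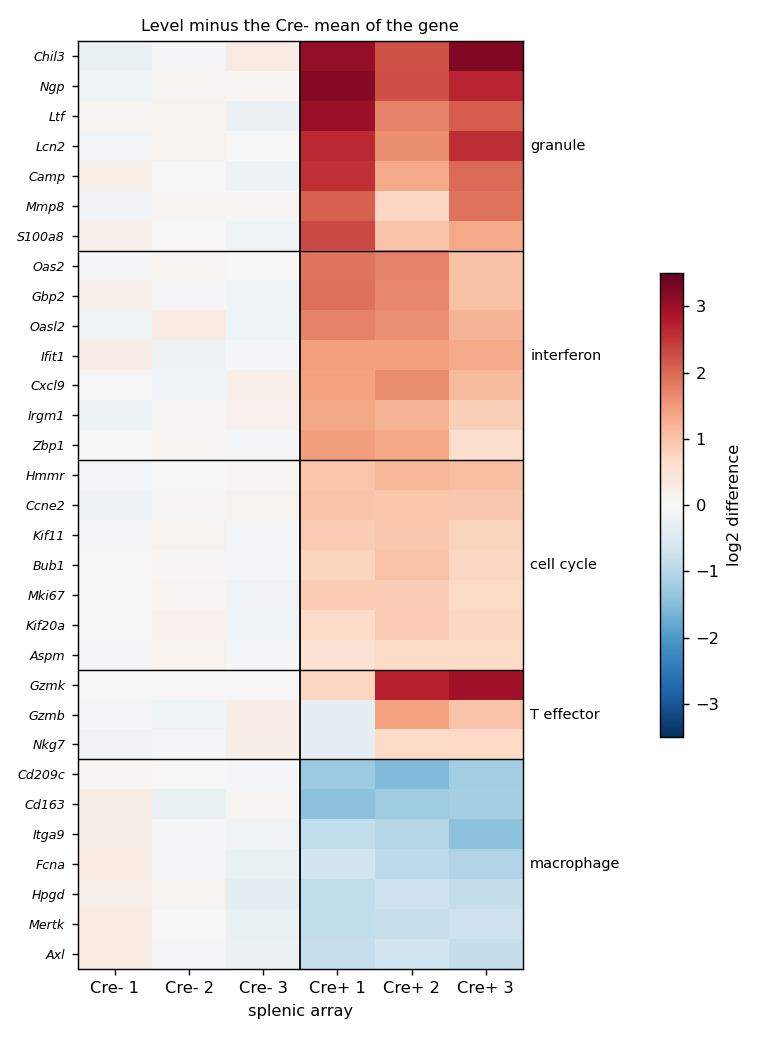
Level on each splenic array minus the gene's mean over the Cre- arrays (colour, log2) for 31 genes in 5 groups. The granule genes are palest on Cre+ array 2, the interferon genes mostly on Cre+ array 3 and the T effector genes on Cre+ array 1. The macrophage genes shown were picked among the called falls, so they are blue on each Cre+ array by selection. Of the 35 measured macrophage genes 9 had a difference above 0.

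The largest falls of all were in matrix genes. Col14a1, a fibril-associated collagen, measured 9.28, 8.18 and 8.07 in Cre- and 6.46, 6.70 and 7.18 in Cre+. The groups were apart, with Cre- array 1 far above the other controls, and the level fell to 30.1% (log2 difference -1.73, SE 0.279, adjusted p = 0.0145). Pcolce2, which enhances the cleavage of procollagen, measured 8.99, 8.93 and 8.51 in Cre- and 7.49, 7.56 and 6.96 in Cre+, a fall to 36.1% (adjusted p = 0.00428) that held in all 12 omissions. The macrophage elastase Mmp12 fell to 53%, from 9.80, 9.22 and 9.51 to 8.65, 8.71 and 8.41. Of 42 measured matrix genes 4 fell and 2 rose, the rises being Spon1 and Mmp8, and of 14 collagens Col14a1 alone was called. The median difference of the list was -0.01, and 14.3% of it was called, against 2.06% of all autosomal probe sets.

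Transporters and enzymes followed in size. Slc7a2, which imports arginine and other cationic amino acids, measured 7.75, 7.74 and 6.98 in Cre- and 6.29, 6.19 and 6.07 in Cre+, a fall to 40.4% (adjusted p = 0.00834). Galnt3, which starts O-linked glycosylation, measured 9.65, 9.35 and 9.09 against 8.26, 8.09 and 8.10, a fall to 43% (adjusted p = 0.00156). The kinase gene Dmpk fell to 44.1%, the organic anion exporter gene Abcc3 to 47.1% and Slc45a3 to 53.2%. In all 5 the groups did not overlap, as in every called probe set, and the calls held in each of the 12 omissions. The glutamate receptor gene Grm8 fell to 48.8% and the semaphorin gene Sema6a to 49.4%, also in all 12.

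Vegfa, the angiogenic growth factor, measured 10.57, 10.49 and 10.29 in Cre- and 9.81, 9.85 and 9.85 in Cre+, a fall to 65.3% (adjusted p = 0.00852). Among 12 hypoxia-induced genes Vegfa and Egln3 fell (16.7% called against 2.06% of all autosomal probe sets), and none of 10 glycolysis genes was called. Il1a, the alarmin interleukin, fell to 61.7% (9.79, 9.46 and 9.71 against 8.86, 9.05 and 8.96). The remaining largest falls were Clec4b2, Tc2n, Cpne4, Duxbl1, Tas2r135, Tjp1, Mpzl1, Dlg2 and Tdrkh, and at very low level Speer4f1 and Olfr702, with log2 differences from -1.31 to -0.86.

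C-type lectins, which bind glycans on microbes and dying cells, moved in both directions. Of 23 measured genes 5 fell, namely Cd209c, Clec4b2, Mrc1, Mgl2 and Clec1b, and 2 rose, namely Clec4e and Clec4a4. The share called was 30.4%, beside 2.06% of all autosomal probe sets. Clec4a4, the inhibitory receptor DCIR2 of cDC2, rose 1.91-fold, from 7.59, 7.30 and 7.63 to 8.73, 8.58 and 8.0. Mgl2, a galactose-binding lectin of another cDC2 population, fell to 61.4%, from 6.64, 6.43 and 6.86 to 5.98, 5.77 and 6.07. Apart from these, none of the 25 measured cDC2 genes was called (8% called in all, against the same 2.06%).

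Markers of conventional dendritic cells held few calls. None of 12 shared markers was called, with a median difference of 0.04. The growth factor receptor Flt3 measured 11.48, 11.34 and 11.23 in Cre- and 11.41, 11.23 and 11.27 in Cre+, and the transcription factor Zbtb46 8.07, 8.05 and 7.82 against 8.13, 8.06 and 7.64. Both overlapped, and both were chosen after their values were seen. Of 19 measured cDC1 genes 16 had a difference above 0, beside 58% of all autosomal probe sets, and the median was 0.31. The mean of that list was 9.75, 9.62 and 9.63 in Cre- and 10.06, 10.01 and 9.94 in Cre+. Irf8, needed for cDC1, had the lowest difference of the list, at -0.21 (adjusted p = 0.26). Of 20 maturation genes none was called (median 0.14). The costimulatory Cd40 measured 8.83, 8.81 and 8.82 against 9.27, 9.34 and 9.20, groups apart with a difference of 0.45 and an adjusted p of 0.153. The migration receptor Ccr7 differed by 0.16 and Cd86 by -0.01.

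Of 18 measured genes of plasmacytoid dendritic cells 4 fell, none rose and 14 were not called (22.2% called against 2.06% of all autosomal probe sets, median -0.29). The largest difference of the list ran the other way without a call, in Cox6a2, a subunit of cytochrome c oxidase, at 0.84 (adjusted p = 0.0786), with 9.44, 8.82 and 9.94 in Cre- and 10.17, 10.22 and 10.34 in Cre+. Ccr9, the gut-homing chemokine receptor, measured 10.32, 10.47 and 10.70 in Cre- and 9.85, 9.54 and 9.65 in Cre+, a fall to 56.7% (adjusted p = 0.0364). Cd300c, an activating immunoglobulin-like receptor, fell to 58%, Bst2 to 63.7% and Upb1 to 72.5%. Siglech, the lectin that defines these cells, measured 11.46, 11.27 and 11.83 against 10.76, 10.71 and 11.03, groups apart but not called (difference -0.68, adjusted p = 0.0631), and their transcription factor Tcf4 differed by -0.24 with overlap. The mean of the list was 9.80, 9.75 and 10.01 in Cre- and 9.57, 9.52 and 9.64 in Cre+. The 4 calls became 0 without Cre+ array 1 or Cre+ array 2, 1 without any 1 of Cre+ array 3 and the 3 Cre- arrays, and 2 without MLN Cre+ array 2.

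In antigen presentation, H2-DMa, which takes part in editing peptides on MHC class II, and H2-Oa rose 1.29-fold and 1.38-fold, and the protease Ctsl fell to 71.4%. Tapbpl, a peptide editor of class I, rose 1.63-fold (8.86, 8.81 and 8.77 against 9.67, 9.63 and 9.26). H2-Ab1 itself measured 13.48, 13.45 and 13.42 against 13.56, 13.45 and 13.50. Of 41 chemokine and receptor genes 3 rose, including Ccl2 at 1.29-fold beside Cxcl9 and Cxcl11, and 2 fell, Ccr9 and Ccl24. That share was 12.2%, against 2.06% of all autosomal probe sets. The inhibitory B cell receptor Cd22 rose 1.45-fold and Fcrl5 1.94-fold, and the mean of the B cell list was 11.11, 11.10 and 11.44 in Cre- and 11.25, 11.36 and 11.53 in Cre+. Of the 13 B cell genes Cd22 was called (7.69%, against 2.06% of all autosomal probe sets), and the part of B cells was not tested. The receptor subunit Il12rb1 rose 1.44-fold and the death receptor Fas 1.63-fold.

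Of the 55 lists, 25 held no called gene. They include the TGF-beta pathway and its responses, interferon signalling, iron and haem, the respiratory chain, Toll-like receptors, the NF-kB pathway, the unfolded protein response, Notch, Wnt, retinoic acid, dendritic cell transcription factors, ribosomal proteins and the circadian clock. Of other cell types, T, natural killer and plasma cells, erythroid cells, mast cells and basophils, eosinophils and stroma had no call. In these 25 lists the largest difference was that of Ccr3, a receptor of eosinophils, at -1.13 with groups apart (adjusted p = 0.0875), followed by the ribosomal protein gene Rpl4 at 0.85 (adjusted p = 0.163). The 15 stroma genes had a median of 0.02, the 11 erythroid genes 0.17, and the 12 megakaryocyte genes, of which Clec1b and Rab27b fell, 0.08. Called megakaryocyte genes were 16.7% of their list, against 2.06% of all autosomal probe sets.

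The same genes were then read in MLN CD103+ cells. There 15 autosomal probe sets were called (0.104%). Of the 183 splenic rises 172 had an MLN difference above 0, beside 66.6% of all autosomal probe sets, and 4 were called in both tissues. These were Cxcl9, Fcgr3, Fcgr4 and Gbp7. Cxcl9 rose by 1.38 in spleen and 1.21 in MLN (adjusted p = 0.0289), Fcgr4 by 1.25 and 1.83 (adjusted p = 0.0253), Gbp7 by 0.77 and 0.90, and Fcgr3 by 0.38 and 0.58, all on the log2 scale. Plcb4 differed by 1.14 in MLN (adjusted p = 0.0579). All 80 cell cycle genes had an MLN difference above 0, with a median of 0.23, and none was called by the difference between the tissues.

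The splenic falls were of either sign in MLN. Of 115 splenic falls 67 had an MLN difference above 0, 48 had one below 0, and none was called there. The 16 red pulp genes had a median difference of 0.45 in MLN, 15 of them above 0. The difference between the tissues itself was called for 20 autosomal probe sets (0.138%), of which 15 were splenic falls and 2 were splenic rises. Mertk differed by -0.79 in spleen and 0.64 in MLN (difference between tissues 1.43, adjusted p = 0.0221), and Axl by -0.78 and 0.53 (adjusted p = 0.0452). Cd163 differed by 0.13 in MLN (adjusted p of the difference between tissues 0.0186), where its Cre- mean was 5.95, against 9.09 in spleen. Whether such low MLN levels left room for a fall was not tested. Of the granule genes Ltf alone was called, with 2.29 in spleen and 0.06 in MLN (adjusted p = 0.044), whereas Chil3 differed by 0.50 in MLN (adjusted p of the difference 0.0534) and Ngp by 1.10 (0.0831). Left out 1 array at a time, between 1 and 24 probe sets were called by this test, with 1 without MLN Cre+ array 2, MLN Cre+ array 3, MLN Cre- array 1 or MLN Cre- array 2. The count was 2 without MLN Cre+ array 1, 13 without MLN Cre- array 3, 12 without splenic Cre+ array 3, 6 without splenic Cre- array 1 and 5 without splenic Cre- array 2.

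**Figure D5:**
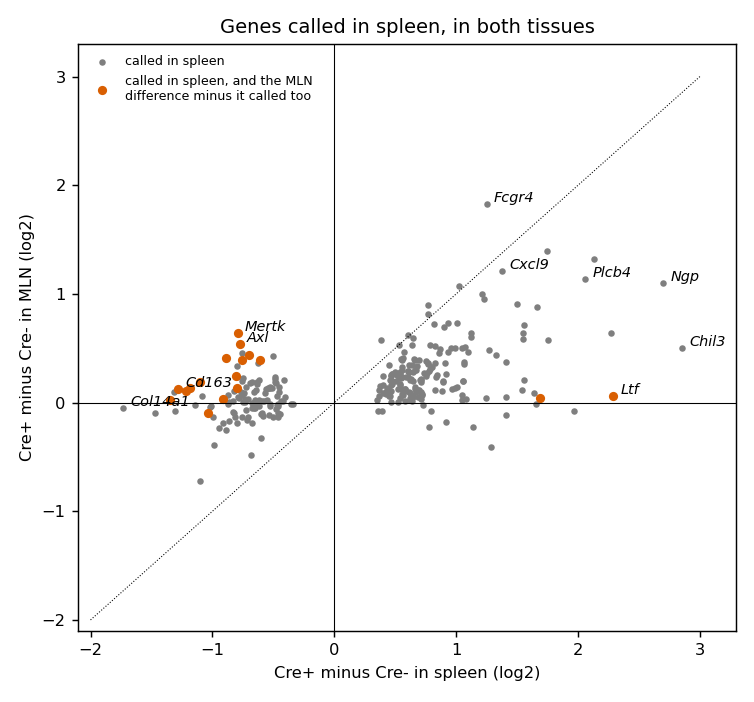
Difference between Cre+ and Cre- in MLN (vertical axis, log2) against that in spleen (horizontal axis, log2) for the 298 probe sets called in spleen, with the dotted line marking equal differences. Orange points are the 17 whose difference between the tissues was called, and most of them are splenic falls near or above 0 in MLN.

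Some called genes were neighbours. Among measured autosomal genes in chromosome order there were 19 pairs of adjacent called genes, 13 with both higher, 3 with both lower and 3 mixed. They include S100a8 with S100a9, Gbp5 with Gbp7, Ifit1 with Ifit2, Oasl1 with Oasl2, Slfn1 with Slfn2, Irgm1 with Tgtp1, Fcgr3 with Fcgr4 and Plcb1 with Plcb4. Near-identical copies within such families may share probes, so their values are uncertain where probe sets could cross-hybridise. By chromosome, the share called was highest on chromosome 11 at 3.65% (45 of 1233) and lowest on chromosome 15 at 1.22% (7 of 573).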

How the data were processed

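The deposited values were log2 gene-level signals made by the authors with RMA in GeneSpring, per the labels. Their log2 scale was read from the range of values, and the sources used here do not give the software version or build. All 12 columns were matched to samples by name, with groups from title and genotype. The MLN Cre+ labels also name Cre- mice in 1 field, which was disregarded. Precision is limited by having 3 arrays a group. RMA gives no detection call.

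Probe sets were named by the platform annotation and placed by a gene table of GRCm38.p6. limma fitted 4 group means over the 12 arrays (version 3.58.1, R 4.3.3), with 8 residual and 2.66 prior degrees of freedom. The tests were two-sided, and p-values were adjusted by Benjamini-Hochberg across every probe set. X, Y and unplaced probe sets were left out afterwards. Where a list gene had several probe sets, that with the highest mean stood for it, and 967 of 1208 list genes were measured on an autosome. The others are not analysed here. The members and lists were chosen with earlier results of these data known, so their counts are descriptions.

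Genes were named by rule: Tgfbr2, the 25 largest rises and 25 largest falls without predicted genes, up to 8 called members of each list (or the 2 of smallest p), the 3 highest members of each cell type list, Y-linked genes and neighbouring called genes. Others named beside them, including further called list members, were chosen after their values were seen.

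Promoters (RefSeq, 250 bases before the start) were searched for GAAANNGAA and TTGCNNAA and TTTGAA and CCAAT. The result of a further motif is not reported here. GAGGAA was searched too. The SMAD-like CAGACA, with AGCCAGAC and GTCTAGAC, were found in 14.4%, 1.12% and 0.166% of all promoters. CAGACA was in 17% of all called rises and 10.5% of all called falls. AGCCAGAC was in 1.36% and 3.16%, and GTCTAGAC was in none of either. The steps were tested on simulated data. Alternatives were the splenic arrays alone, other scalings, a filter on dim probe sets, other variance models, array weights, a replicate block, adjustment over autosomes alone, averaged probe sets and leaving out each array.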

Additional observations from a re-analysis of the deposited data

Results flagged for a closer look

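Of the named genes, 13 were picked out because the difference between Cre+ and Cre- differed between MLN and spleen in limma's test of that difference (adjusted p under 0.05). For 12 of them the MLN difference was the higher one. The MLN difference minus the splenic difference was 1.43 for Mertk, 1.40 for Cd163, 1.38 for Cd209c, 1.33 for Galnt3, 1.31 for Axl and 1.31 for Dmpk, on the log2 scale. It was 1.30 for Fcna, 1.29 for Itga9, 1.15 for Igf1, 1.13 for Il1a, 0.94 for Slc45a3 and 0.94 for Grm8. For Ltf it was -2.23, a rise in spleen with a difference near 0 in MLN. Splenic cells were sorted magnetically and MLN cells by flow. The MLN cells were also selected by a further marker and pooled, and the number of mice behind each splenic array is not given. Tissue, sorting method, marker selection and pooling therefore cannot be told apart in these values. The Y-linked gene Eif2s3y differed between Cre+ and Cre- by -6.73 in spleen and by 0.18 in MLN, on the log2 scale. The 13 differences between tissues therefore cannot be told apart from an effect of sex in spleen.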

How the results depend on the processing

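None of the 126 called genes picked by the naming rule changed direction under any of the 22 alternatives, but most alternatives could not change it. The splenic groups of every called gene do not overlap, so leaving out 1 splenic array keeps the sign. Leaving out MLN arrays, or changing the variance model or the adjustment, leaves the splenic difference nearly or wholly as it was. The calls did depend on the alternatives. With the 6 splenic arrays alone, which leave fewer degrees of freedom, 9 autosomal probe sets were called (8 higher, 1 lower), with 1 neutrophil, 1 type I interferon, 0 interferon gamma and 1 cell cycle rise, and 1 macrophage and 0 plasmacytoid falls. Quantile normalization over all 12 arrays gave 184 calls, 96 of them higher, with 9 neutrophil, 7 type I, 5 interferon gamma and 13 cell cycle rises; within each tissue it gave 187 falls. Array weights, which gave splenic Cre+ array 2 a weight of 6.04, gave 1568 calls (1062 higher, 506 lower), 35 type I, 16 interferon gamma and 55 cell cycle rises, 9 plasmacytoid falls and 491 differences between tissues, and took Tgfbr2 (-0.2283) past the threshold. The difference between tissues gave 46 calls after the filter on dim probe sets and 11 with adjustment over autosomes alone, against 20. Deviations of same-numbered Cre- and Cre+ arrays from their group means correlated at -0.0769, -0.00259 and -0.142 in spleen. In MLN the correlations were 0.204, 0.00149 and 0.31. Deviations of 3 arrays from their mean sum to 0, so these values cannot settle whether the numbers pair arrays. A replicate block gave 160 calls (106 higher, 54 lower), 7 neutrophil and 7 type I rises and 0 differences between tissues. The cause of these shifts was not tested. Leaving out 1 array gave 92 to 315 calls, 52 to 207 higher and 40 to 116 lower, and 1 to 24 differences between tissues. It gave 6 to 15 neutrophil, 3 to 19 type I, 2 to 9 interferon gamma and 4 to 28 cell cycle rises, and 4 to 11 macrophage and 0 to 4 plasmacytoid falls.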
